A study of Mus musculus with 13 samples.

Results

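Small leucine-rich proteoglycans and the large hyaluronan-bound proteoglycan versican, with its link protein, form much of the loose matrix between cells. The 9 genes described here, Dcn, Bgn, Aspn, Lum, Fmod, Prelp, Ogn, Vcan and Hapln1, were taken by gene symbol, as a set chosen with earlier results of these data known, out of 18193 gene symbols with at least 1 probe set of their own on the array. They are covered by 30 probe sets, and 8 of the 9 genes passed the filter on dim signals. Values are log2 intensities from 13 mouse microarrays of whole SM1 tumours, a transplantable melanoma with mutant BRAF grown in C57BL/6 mice.

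All mice received splenocytes by adoptive transfer, so there was no group without transferred cells. Recipients of pmel-1 splenocytes, from mice transgenic for a T cell receptor against gp100, a melanocyte protein, were given dabrafenib with trametinib (3 arrays), dabrafenib alone (2 arrays), trametinib alone (2 arrays) or vehicle (2 arrays). Control recipients, which had C57BL/6 splenocytes, were given dabrafenib with trametinib (2 arrays) or vehicle (2 arrays). Dabrafenib inhibits BRAF and trametinib inhibits MEK, the kinase downstream of it. The labels give no dose, time or batch, and they do not say whether replicates came from separate animals, so p-values measure only the spread between these samples. In RNA of a whole tumour, fewer cells of a type and less RNA per cell cannot be told apart.

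The small leucine-rich proteoglycans are secreted proteins with a curved array of leucine-rich repeats that binds collagen fibrils and growth factors. Decorin, biglycan and asporin belong to class I, lumican, fibromodulin and prolargin to class II, and osteoglycin to class III. In skin and tumours decorin and lumican are made mainly by fibroblasts. Versican carries chondroitin sulphate chains and binds hyaluronan, and the link protein Hapln1, best known from cartilage, locks that bond. Melanoma cells can make both versican and Hapln1.

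Some arrays stood apart. Control vehicle replicate 3 had a mean log2 intensity of 6.85 over 12 skeletal muscle markers, against 5.64 to 5.79 on the other 12 arrays, and read 9.90 for the muscle actin Acta1. The same array averaged 9.47 over 12 fibroblast markers, against 8.55 in control vehicle replicate 1. Means over 5 adipocyte markers were 7.89 to 8.47 on combination replicate 2, dabrafenib replicate 2 and trametinib replicate 1 of the pmel-1 recipients, against 5.65 to 6.62 on the other arrays. The log2 ratio of 3′ to 5′ probe sets of 4 control transcripts, a sign of RNA quality, was 1.64 ± 0.20 in the drug-treated pmel-1 tumours (SD, n = 7), against 1.14 ± 0.13 in all other tumours (SD, n = 6). The list of fibroblast markers and the calls of single genes were also computed without the arrays high for muscle or adipocyte markers. Arrays of 1 group correlated at 0.983 to 0.994 and arrays of different groups at 0.905 to 0.994.

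Over both kinds of recipient, the combination changed 6 of the 8 tested genes relative to vehicle, beside 52.6% of all 13783 genes tested, a background against which the share of the set says little. Dcn, Lum, Bgn and Fmod rose, where 28.1% of all genes rose, and Hapln1 and Vcan fell, where 24.5% of all genes fell. Hapln1 passed the filter through its vehicle arrays alone, so that count is a description and supports nothing about the set. Aspn and Prelp did not pass the test, limma with Benjamini-Hochberg adjustment over all genes and a threshold of 0.05. Throughout, rose and fell are used for genes that passed it, and log2 differences are given ± SE from the same fit.

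**Figure D1:**
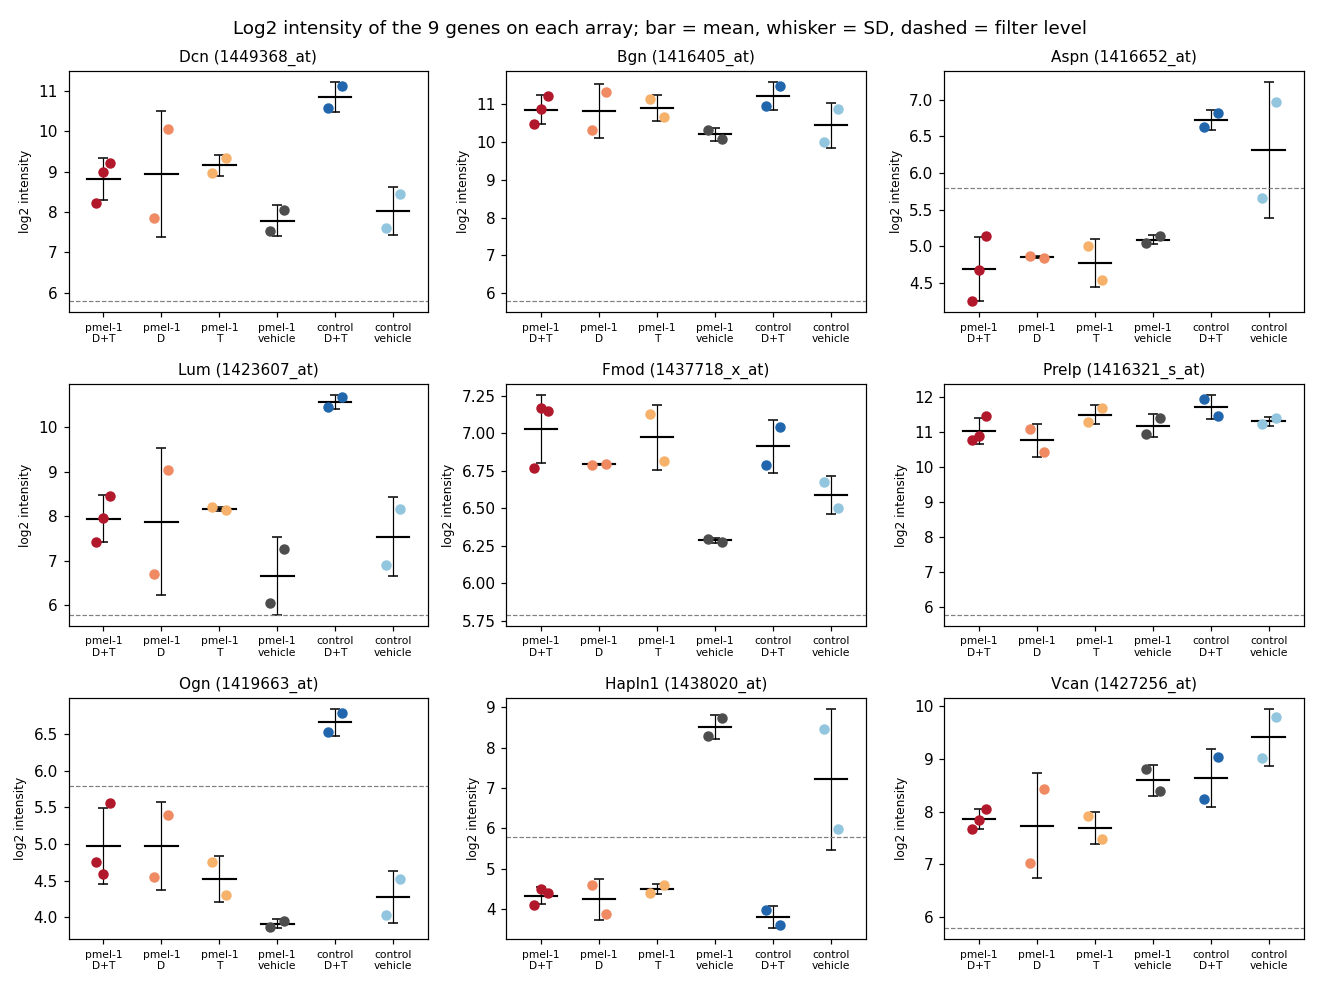
Log2 intensity of each of the 9 genes on each of the 13 arrays, 1 panel per gene with its probe set, by group (D+T, both drugs; D, dabrafenib; T, trametinib); points are arrays, bars group means and whiskers SD, and the dashed line is the filter level of 5.79. Lum and Dcn are highest in the control tumours given both drugs, and Hapln1 is over the line only on the 4 vehicle arrays.

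Hapln1 showed the largest difference of the set. It was over the filter level on vehicle arrays alone, so it entered the fit only through the group where it was high. Its probe set 1438020_at read 4.09, 4.49 and 4.40 in the 3 pmel-1 tumours given both drugs, 4.60 and 3.87 with dabrafenib and 4.40 and 4.59 with trametinib, against 8.30 and 8.73 with vehicle. In control recipients it read 3.98 and 3.60 with both drugs, against 8.45 and 5.97 with vehicle. All 9 drug-treated tumours lay under 5.79, the 40th percentile of all values used here as the filter level, and all 4 vehicle tumours lay over it.

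The fall of Hapln1 was 3.80 ± 0.39 on the log2 scale over both kinds of recipient (adjusted p = 1.24e-05). It was -4.19 ± 0.53 in pmel-1 recipients (adjusted p = 0.000103) and -3.42 ± 0.58 in control recipients (adjusted p = 0.000927). No fold is given, since the drug-treated groups were under the filter level, and the differences are those measured, not bounds. The other 3 probe sets of Hapln1 fell too in the fit of every probe set, with log2 differences over both kinds of recipient of -1.58 ± 0.16 for 1421633_a_at, -2.72 ± 0.29 for 1426294_at and -2.75 ± 0.35 for 1426295_at. They also passed the filter through vehicle arrays alone, 2 for 1421633_a_at and 3 for each of the others, so these differences are a description. For 1421633_a_at both control groups were wholly under the filter level. Control vehicle replicate 3, the array high for muscle, was the lowest of the vehicle tumours on all 4 probe sets. Without that array the difference was -4.43 over both kinds of recipient and -4.66 in control recipients. Leaving out control vehicle replicate 1 gave -3.18 over both kinds and -2.18 in control recipients. With the mean of the 4 probe sets it was -2.71 over both kinds of recipient.

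No difference between the combination and either single drug passed for Hapln1. Dabrafenib alone lowered it by a log2 difference of -4.28 ± 0.58 (adjusted p = 0.000226) and trametinib alone by -4.02 ± 0.58 (adjusted p = 0.000347), both against the same vehicle arrays. The combination minus dabrafenib gave 0.09 ± 0.53, with a 95% interval of -1.07 to 1.25, and the combination minus trametinib gave -0.17 ± 0.53, with an interval of -1.33 to 0.99. Since every one of these groups lay under the filter level, these intervals say little of differences between them.

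Vcan moved less than Hapln1. Its probe set 1427256_at read 7.68, 7.84 and 8.06 with both drugs, 7.03 and 8.43 with dabrafenib and 7.91 and 7.48 with trametinib, against 8.81 and 8.39 with vehicle, all in pmel-1 recipients. The control recipients read 8.25 and 9.03 with both drugs, against 9.03 and 9.80 with vehicle. The highest of the 13 values was that of control vehicle replicate 3. Over both kinds of recipient Vcan fell by 0.75 ± 0.28 on the log2 scale, which is 1.69-fold (adjusted p = 0.0425). Without control vehicle replicate 3 the difference was -0.56 and the adjusted p 0.165, so the call ended. It also ended, at -0.86 to -0.56, without control combination replicate 2 or any 1 of combination replicates 1 and 2, both trametinib and both vehicle arrays of pmel-1 recipients.

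Of the 8 probe sets annotated to Vcan, 3 passed the filter. Beside 1427256_at, 1421694_a_at fell by 0.60 ± 0.21 (adjusted p = 0.0364), while 1427257_at did not pass, at -0.22 ± 0.18 (adjusted p = 0.339). The 5 others never reached the filter level. The array cannot show which splice form of versican each value stands for, since the probe sets were not placed on transcripts here. Within pmel-1 recipients Vcan gave log2 differences of -0.74 ± 0.38 for the combination (adjusted p = 0.142), -0.87 ± 0.42 for dabrafenib (adjusted p = 0.122) and -0.90 ± 0.42 for trametinib (adjusted p = 0.114), none of which passed. In control recipients the combination gave -0.77 ± 0.42 (adjusted p = 0.184).

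**Figure D2:**
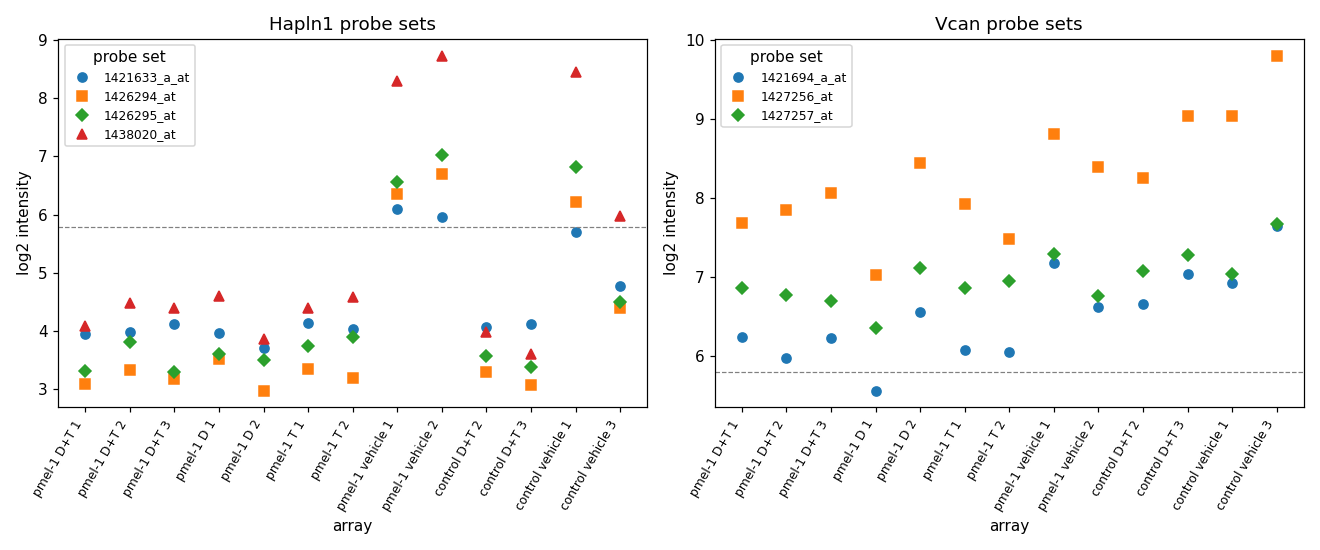
Log2 intensity of the 4 probe sets of Hapln1 (left) and of the 3 probe sets of Vcan that passed the filter (right) on each array; the dashed line is the filter level of 5.79. All 4 Hapln1 probe sets are lowest on the 9 drug-treated arrays and, among vehicle arrays, lowest on control vehicle replicate 3, while the Vcan probe sets are highest there.

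Hapln1 and Vcan are neighbours on mouse chromosome 13 (GRCm38.p6), at 89540529 to 89611832 and 89655309 to 89743027, with 43.5 kb between them, and they lie on opposite strands. Because both fell, the 250 bases before the start of each gene in the RefSeq promoter table are shown, 5′ to 3′ on the gene's own strand. Capitals mark a match to ACAANG, a loose pattern searched under the name SOX, in which N is any base.
Hapln1, chr13:89540386-89540635, plus strand: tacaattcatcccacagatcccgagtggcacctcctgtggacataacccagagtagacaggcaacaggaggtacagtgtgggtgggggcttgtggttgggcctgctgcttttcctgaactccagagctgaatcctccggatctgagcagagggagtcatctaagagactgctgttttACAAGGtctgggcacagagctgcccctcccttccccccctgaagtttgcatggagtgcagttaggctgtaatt
Vcan, chr13:89742513-89742762, minus strand: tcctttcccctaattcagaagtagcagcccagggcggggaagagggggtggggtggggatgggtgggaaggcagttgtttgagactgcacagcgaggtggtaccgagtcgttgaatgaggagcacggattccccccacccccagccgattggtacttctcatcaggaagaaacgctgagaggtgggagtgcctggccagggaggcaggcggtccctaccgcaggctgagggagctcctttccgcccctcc
Both windows start from a transcript start that lies inside the gene's outer bounds. The Hapln1 window held 1 such match, ACAAGG, 73 to 68 bases before the start, which does not show a SOX site. The Vcan window held no match to any pattern searched.

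The patterns of letters, searched anywhere in the window on both strands, were named for AP-1 (TGANTCA), ETS (CGGAAG), SOX (ACAANG), the TATA box (TATAAA) and the M-box (CATGTG). They occur in 6.75%, 13.6%, 36.3%, 12.4% and 12.3% of all 32851 windows of the same length, in that order. The table held windows for 7 of the 9 genes, and AP-1 and ETS letters were in none of the 7. The SOX letters were in those of Fmod, Ogn and Hapln1, and TATAAA was in those of Aspn and Ogn.

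Among the class I proteoglycans, Dcn, whose product decorin binds collagen and TGF-beta, rose most. Its probe set 1449368_at read 8.22, 9.0 and 9.20 with both drugs, 7.84 and 10.05 with dabrafenib and 8.96 and 9.34 with trametinib, against 7.52 and 8.05 with vehicle, in pmel-1 recipients. In control recipients its values were 10.58 and 11.11 with both drugs, against 7.61 and 8.44 with vehicle. Within each kind of recipient the combination arrays lay over the vehicle arrays, and the 2 dabrafenib arrays lay far apart.

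Over both kinds of recipient Dcn rose by 1.92 ± 0.39 on the log2 scale, which is 3.79-fold (adjusted p = 0.00163). In control recipients it rose by 2.82 ± 0.58, 7.08-fold (adjusted p = 0.00311), and in pmel-1 recipients the difference was 1.02 ± 0.53 (adjusted p = 0.145), which did not pass. Dabrafenib gave 1.16 ± 0.58 (adjusted p = 0.137) and trametinib 1.36 ± 0.58 (adjusted p = 0.0875). The other Dcn probe set, 1441506_at, was under the filter level on all arrays, and with the mean of both the difference was 0.94 over both kinds of recipient (adjusted p = 0.00412) and 1.38 in control recipients (adjusted p = 0.00704). Without control vehicle replicate 3, the log2 difference over both kinds of recipient was 2.13 (adjusted p = 0.00284), and with the 3′ to 5′ ratio as a covariate it was 1.72 (adjusted p = 0.00524).

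Bgn, the X-linked gene of biglycan, read 10.47, 10.87 and 11.22 with both drugs, 10.30 and 11.31 with dabrafenib and 11.14 and 10.65 with trametinib, against 10.32 and 10.08 with vehicle, in pmel-1 recipients. Control tumours read 10.96 and 11.48 with both drugs, against 10.01 and 10.86 with vehicle. It rose by 0.72 ± 0.25 on the log2 scale over both kinds of recipient, 1.65-fold (adjusted p = 0.0315), and in no contrast within 1 kind of recipient. Of its other probe sets, 1448323_a_at rose by 0.72 ± 0.26 and 1437889_x_at gave 0.55 ± 0.22 (adjusted p = 0.0545). With the 3′ to 5′ ratio as a covariate the difference was 0.63 (adjusted p = 0.079), and it also missed the threshold without any 1 of 6 arrays, at 0.50 to 0.78. These were combination replicates 2 and 3 and both vehicle arrays of pmel-1 recipients, control combination replicate 3 and control vehicle replicate 1.

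Aspn, whose product asporin binds collagen and TGF-beta, was measured over the filter level in control recipients alone. Its probe set 1416652_at read 4.26, 4.68 and 5.14 with both drugs, 4.86 and 4.85 with dabrafenib, 5.0 and 4.55 with trametinib and 5.05 and 5.14 with vehicle in pmel-1 recipients, all under the filter level. The values in control recipients were 6.62 and 6.82 with both drugs and 5.66 and 6.97 with vehicle. Aspn was over the filter level on 3 control arrays alone and entered the fit through them. The combination gave 0.01 ± 0.25 over both kinds of recipient, with a 95% interval of -0.53 to 0.55. The second probe set, 1448421_s_at, which can match more than 1 transcript and was over the level on 3 control arrays alone too, gave 0.75 ± 0.28, so the 2 probe sets disagree.

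The class II gene Lum, whose product lumican spaces collagen fibrils, followed Dcn. Its single probe set 1423607_at read 7.42, 7.97 and 8.46 with both drugs, 6.71 and 9.05 with dabrafenib and 8.21 and 8.14 with trametinib, against 6.05 and 7.27 with vehicle, in pmel-1 recipients. Among control recipients it read 10.45 and 10.68 with both drugs, against 6.91 and 8.17 with vehicle. Both control tumours given the combination lay over the 11 other arrays.

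Lum rose by 2.16 ± 0.45 on the log2 scale over both kinds of recipient, 4.46-fold (adjusted p = 0.00184), and by 3.03 ± 0.67 in control recipients, 8.14-fold (adjusted p = 0.00454). In pmel-1 recipients the combination gave 1.29 ± 0.61 (adjusted p = 0.108), dabrafenib 1.22 ± 0.67 (adjusted p = 0.171) and trametinib 1.52 ± 0.67 (adjusted p = 0.0962). Without control vehicle replicate 3 the difference over both kinds of recipient was 2.47 (adjusted p = 0.00206). In a fit of only the 5 arrays compared, Lum in pmel-1 recipients kept its difference of 1.29 and passed at an adjusted p of 0.027, as did Dcn at 0.0218. Both also passed without either dabrafenib array, which lay far apart, at adjusted p-values of 0.0268 and 0.0248. The sizes moved with single arrays. Without pmel-1 vehicle replicate 1, Lum in pmel-1 recipients gave 0.68 (adjusted p = 0.547) and Dcn 0.75 (adjusted p = 0.463), and without vehicle replicate 2 Lum gave 1.90 (adjusted p = 0.0739). With the 3′ to 5′ ratio as a covariate, Lum gave 0.78 (adjusted p = 0.509) and Dcn 0.47 (adjusted p = 0.648). In control recipients Lum gave 2.40 without control vehicle replicate 1 (adjusted p = 0.044) and 3.65 without replicate 3 (adjusted p = 0.00803). Dcn gave 2.41 and 3.24 there, and with the ratio as a covariate Lum gave 3.17 and Dcn 2.97, all of which passed.

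Fmod, the gene of fibromodulin, another regulator of collagen fibrils, rose with each treatment of pmel-1 recipients on the probe set used. Probe set 1437718_x_at read 6.77, 7.17 and 7.15 with both drugs, 6.79 and 6.80 with dabrafenib and 7.13 and 6.82 with trametinib, against 6.30 and 6.28 with vehicle, in pmel-1 recipients. In control recipients the probe set read 6.79 and 7.04 with both drugs, against 6.68 and 6.50 with vehicle. The log2 difference was 0.53 ± 0.11 over both kinds of recipient (adjusted p = 0.00139) and 0.74 ± 0.14 in pmel-1 recipients (adjusted p = 0.00155).

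With dabrafenib Fmod rose by 0.51 ± 0.16 (adjusted p = 0.024) and with trametinib by 0.69 ± 0.16 (adjusted p = 0.00533). In control recipients the combination gave 0.32 ± 0.16 (adjusted p = 0.138). Of the 6 Fmod probe sets 5 carry the array's mark for probes that can hybridise to other transcripts, the one above among them. The sixth, 1415939_at, was under the filter level everywhere, with 5.02 to 5.57. The 3 other probe sets that passed the filter gave 0.23 ± 0.11, 0.36 ± 0.16 and -0.11 ± 0.28 over both kinds of recipient, with adjusted p-values of 0.11, 0.0754 and 0.774. The Fmod calls therefore rest on 1 cross-hybridising probe set. With the 3′ to 5′ ratio as a covariate, Fmod missed the threshold with dabrafenib, at 0.42 (adjusted p = 0.133), and with trametinib, at 0.59 (adjusted p = 0.051). It missed it too with dabrafenib without any 1 of the 2 dabrafenib and 2 vehicle arrays, at 0.49 to 0.52, and with trametinib without trametinib replicate 1, at 0.53.

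Prelp, the gene of prolargin, which ties basement membranes to collagen, did not pass with any drug treatment. Probe set 1416321_s_at read 10.77, 10.89 and 11.45 with both drugs, 11.10 and 10.43 with dabrafenib and 11.30 and 11.69 with trametinib, against 10.95 and 11.41 with vehicle, in pmel-1 recipients. Control recipients had 11.95 and 11.46 with both drugs, against 11.22 and 11.39 with vehicle. The combination gave 0.13 ± 0.19 over both kinds of recipient (adjusted p = 0.611), with a 95% interval of -0.29 to 0.55.

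**Figure D3:**
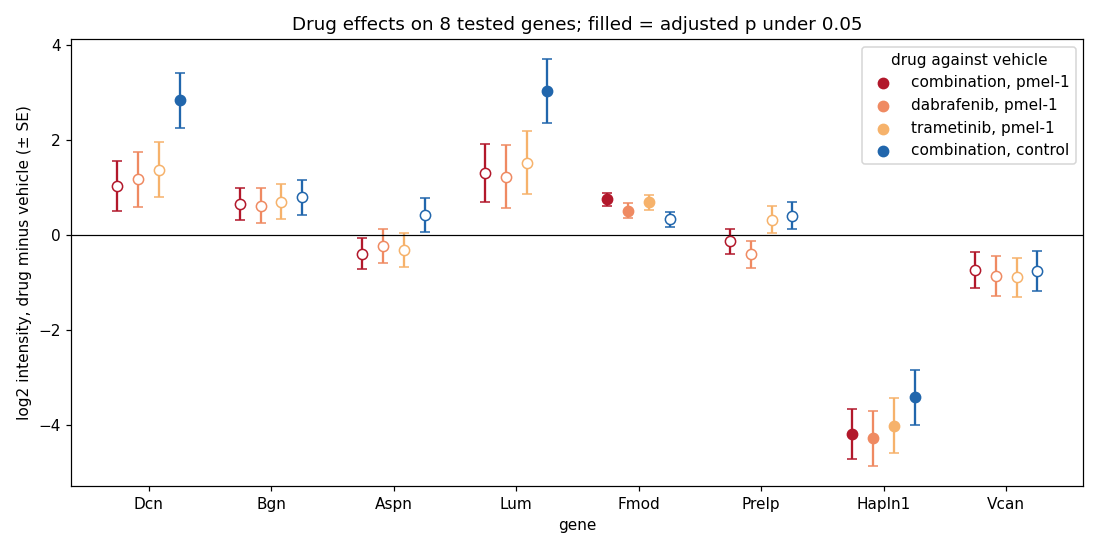
Log2 difference of each drug treatment minus vehicle for the 8 tested genes, with SE, from 1 fit over all 13 arrays; filled points passed the test at an adjusted p under 0.05, and the 3 pmel-1 contrasts share their 2 vehicle arrays. Hapln1, which entered the fit through its vehicle arrays alone, is filled in all 4 contrasts, between -4.28 and -3.42. Lum and Dcn are filled only in control recipients.

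Ogn, the class III gene of osteoglycin, was not among the tested genes, because the probe set of higher mean, 1419662_at, reached the filter level on 1 array only. The other, 1419663_at, read 4.76, 4.59 and 5.56 with both drugs, 4.55 and 5.39 with dabrafenib and 4.75 and 4.31 with trametinib, against 3.87 and 3.96 with vehicle, in pmel-1 recipients. In control recipients, intensities were 6.53 and 6.79 with both drugs, against 4.03 and 4.53 with vehicle. The 2 control tumours given the combination were the only ones over the filter level.

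This probe set entered the fit of every probe set only through those 2 arrays, and every pmel-1 group was wholly under the filter level. Its values are therefore a description, with no test and no fold. Ogn is shown with its upstream window because that window held the most motif matches of the 7. Capitals mark TATAAA on either strand (229 to 222 bases before the start, 2 overlapping matches) and a match to ACAANG (196 to 191). They also mark 2 matches to CATGTG on the other strand (63 to 58 and 39 to 34).
Ogn, chr13:49607765-49608014, plus strand: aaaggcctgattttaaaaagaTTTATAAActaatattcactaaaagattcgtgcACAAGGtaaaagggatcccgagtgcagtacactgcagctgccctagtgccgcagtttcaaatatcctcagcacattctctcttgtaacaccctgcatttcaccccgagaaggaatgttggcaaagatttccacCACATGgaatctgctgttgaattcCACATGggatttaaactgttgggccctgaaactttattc
The 250-base window and its coordinates are those of RefSeq on GRCm38.p6.

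Several of the genes lie in clusters of small proteoglycan genes. Dcn and Lum are neighbours on chromosome 10, at 97479500 to 97518163 and 97565501 to 97572703, with 47.3 kb between them, and Kera (keratocan) and Epyc (epiphycan) follow. Both members rose in control recipients, while Kera read 3.31 to 3.71 and Epyc 3.03 to 3.21 on the 13 arrays, under the filter level everywhere. On chromosome 13, Ecm2, Aspn, Omd and Ogn lie in a row. Omd, the gene of osteomodulin, read 6.09 and 5.96 in the control tumours given both drugs, against 4.81 and 5.18 with vehicle, and was over the filter level on those 2 arrays alone. Ecm2 was under the filter level everywhere, at 3.04 to 4.44. Prelp and Fmod share chromosome 1 with Optc (opticin), which gave -0.10 ± 0.07 (adjusted p = 0.276).

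Dabrafenib alone changed 2 of the 8 genes, where 41.4% of all genes changed, and trametinib alone changed 2 of 8, where 38.6% changed. In both cases the genes were Fmod, which rose, and Hapln1, which fell. Within pmel-1 recipients the combination changed the same number, where 45.6% of all genes changed, and within control recipients it changed 3 of 8, Lum, Dcn and Hapln1, where 35.4% changed. Each of these counts includes Hapln1, which passed the filter through its vehicle arrays alone. The counts are therefore a description and support nothing about the set. The 3 pmel-1 contrasts share the 2 vehicle arrays, so their values stand side by side and are not independent.

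Between dabrafenib and trametinib none of the 8 genes differed in the limma fit, where 0.776% of all genes did, and 1 had an unadjusted p under 0.05. That gene was Prelp, at -0.73 ± 0.28 for dabrafenib minus trametinib (adjusted p = 0.333), with a 95% interval of -1.35 to -0.11. The probe set used, 1416321_s_at, can match more than 1 transcript. The other Prelp probe set, 1416322_at, was over the filter level on all 13 arrays. It averaged 9.42 ± 0.10 with dabrafenib and 9.47 ± 0.15 with trametinib (SD, n = 2 each), so the Prelp difference rests on 1 probe set. The intervals for the same difference were -1.76 to 1.17 for Lum, -1.49 to 1.08 for Dcn and -0.89 to 0.95 for Vcan. Those for Lum and Dcn hold a difference of 2-fold in either direction. None differed between the combination and dabrafenib, where 0% of all genes passed, or between the combination and trametinib, where 1.1% did, and 0 had an unadjusted p under 0.05 in either.

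Under the combination, Lum and Aspn passed between pmel-1 and control recipients, both lower in pmel-1 recipients, 2 of 8 genes where 4.24% of all genes differed. That count includes Aspn, which entered the fit through control arrays alone, so it is a description and supports nothing about the set. Lum differed by -2.61 ± 0.61 on the log2 scale (6.12-fold lower, adjusted p = 0.0405). Aspn gave a measured difference of -2.03 ± 0.33 (adjusted p = 0.00831), which is no bound and supports no difference on its own, because Aspn passed the filter only through control arrays and the pmel-1 group was wholly under the filter level. Dcn gave -2.04 ± 0.53 with an adjusted p of 0.0559, just over the threshold, and all 3 pmel-1 values lay under both control values.

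The 3′ to 5′ ratio moved with this contrast, at 1.46 to 1.81 in the 3 pmel-1 combination tumours and 1.004 and 1.039 in the 2 control ones. With the ratio as a covariate the differences were -3.46 for Lum (adjusted p = 0.536) and -1.58 for Aspn (adjusted p = 0.704), so neither passed, and the part of RNA quality in them cannot be told apart from that of the transfer. Lum also missed the threshold without any 1 of 8 arrays, at -2.72 to -2.35, namely combination replicates 1 and 2, both trametinib and both vehicle arrays of pmel-1 recipients and either control combination array. Aspn missed it without control combination replicate 2, at -2.13 (adjusted p = 0.0643), and without replicate 3, at -1.93 (adjusted p = 0.0653). Dcn passed without either dabrafenib array, at -2.04 (adjusted p = 0.00652), and without pmel-1 combination replicate 3, at -2.24 (adjusted p = 0.0491). Over the 13 arrays Aspn correlated with the ratio at -0.81. Fibroblast markers averaged 9.01 to 9.67 in those pmel-1 tumours and 9.46 and 10.03 in the control ones, and 0 of the 12 markers passed in this contrast.

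Under vehicle, none of the 8 genes passed between pmel-1 and control recipients by limma, where 0% of all genes did, and 2 of the 8 had an unadjusted p under 0.05. These were Aspn at -1.22 ± 0.36 (adjusted p = 0.211) and Hapln1 at 1.30 ± 0.58 (adjusted p = 0.369). Without control vehicle replicate 1, leaving the array high for muscle as the only control, both passed.

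An interaction term set the effect of the combination in pmel-1 recipients against that in control recipients. None of the 8 genes passed in limma, where 0.283% of all genes did, and 1 had an unadjusted p under 0.05. It was Dcn, with a combination effect in pmel-1 minus that in control recipients of -1.80 ± 0.79 (adjusted p = 0.294) and a 95% interval of -3.54 to -0.07. Lum gave -1.73 ± 0.90 (adjusted p = 0.374), with an interval of -3.72 to 0.25. The rise of Lum and Dcn is therefore not shown to differ between the kinds of recipient, although it passed in only one of them.

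Fibroblast markers were followed beside Dcn, Lum and Bgn. Of 12 markers 5 rose and 0 fell with the combination over both kinds of recipient, 41.7% of the list where 28.1% of all genes rose, with a median of 0.99, against 0.01 for all genes. Without control vehicle replicate 3, 7 of 12 rose, and without the 3 arrays high for adipocyte markers 6 rose and 1, Pdgfra, fell. Those 6 included Dpt, which was over the filter level on drug-treated arrays alone and entered the fit through them. Over all arrays Pdgfra, a receptor of fibroblasts, gave -0.62 ± 0.27 (adjusted p = 0.0752). Those that rose over all arrays were Pdpn, S100a4, which macrophages also express, Col1a1, Fap and Col3a1. Pdpn rose by 0.66 ± 0.10 (adjusted p = 0.000142), S100a4 by 1.30 ± 0.23 (adjusted p = 0.000563) and Col1a1 by 1.61 ± 0.52 (adjusted p = 0.0213). Marker means by group ran from 9.01 to 9.67 with both drugs, 8.60 to 9.94 with dabrafenib and 8.86 to 9.49 with trametinib, against 8.52 to 8.73 with vehicle, in pmel-1 recipients. In control recipients they were 9.46 and 10.03 with both drugs, against 8.55 and 9.47 with vehicle. No marker was under the filter level in a drug-treated group, and 1 was in each vehicle group. Their part in the rise of Dcn, Lum and Bgn was not tested.

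Over the 13 arrays, which share groups and treatments, the correlation with the mean of these markers was 0.97 for Bgn, 0.81 for Dcn and 0.80 for Lum. It was 0.62 for Fmod, 0.36 for Aspn, 0.24 for Vcan, -0.05 for Prelp and -0.71 for Hapln1. Dabrafenib replicate 2, high for fibroblast and adipocyte markers, was the highest pmel-1 array for Dcn, Lum and Bgn. The 2 control tumours given both drugs read 10.45 and 10.68 for Lum at marker means of 9.46 and 10.03, while control vehicle replicate 3 read 8.17 at 9.47.

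**Figure D4:**
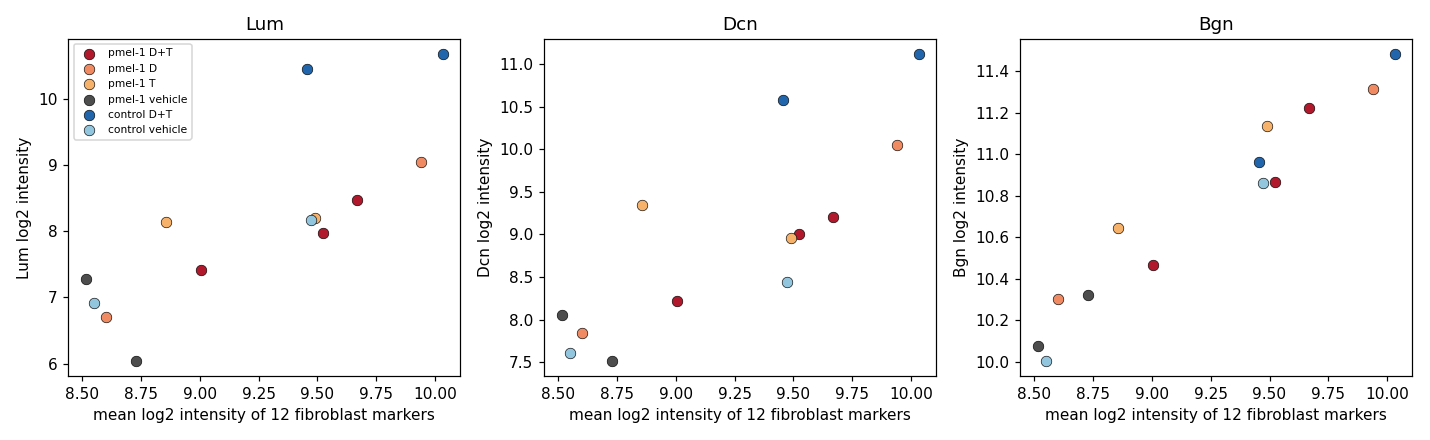
Log2 intensity of Lum, Dcn and Bgn (vertical axes) against the mean log2 intensity of 12 fibroblast markers (horizontal axes) on the 13 arrays, coloured by group. Bgn follows the marker mean closely, while for Lum and Dcn the 2 control tumours given both drugs lie over arrays of like marker mean.

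Some cartilage markers fell beside Hapln1. Of 6 tested, 3 fell, where 24.5% of all genes fell, and 0 rose with the combination over both kinds of recipient: Col2a1 by -3.29 ± 0.30 (adjusted p = 5.23e-06), Acan by -1.35 ± 0.17 (adjusted p = 5.84e-05) and Col9a1 by -1.48 ± 0.43 (adjusted p = 0.0121). Acan encodes aggrecan, the cartilage partner of the link protein. The 8 markers on the array averaged 6.52 to 7.25 on the drug-treated arrays and 7.62 to 7.90 on the vehicle arrays. Matn3, Sox9 and Col11a1 did not pass. Melanocyte markers went the other way, with 7 of 8 rising, where 28.1% of all genes rose. Their mean was 12.58 to 12.75 on drug-treated arrays and 12.01 to 12.11 on vehicle arrays. Tyrp1, among the 7, was over the filter level on 6 drug-treated pmel-1 arrays alone and entered the fit through them. The part of either list in the fall of Hapln1 was not tested.

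Genes that act on the same matrix moved in both directions. Of 19 tested genes of hyaluronan synthesis, binding and turnover 4 rose and 5 fell, 47.4% of the list where 52.6% of all genes changed, so this count is no result about the list. Hexa, a lysosomal hexosaminidase, rose by 0.76 ± 0.06 (adjusted p = 3.11e-06) and Itih5, a hyaluronan-binding inter-alpha-trypsin inhibitor chain, by 2.52 ± 0.34 (adjusted p = 8.79e-05). Hyal2, a hyaluronidase, fell by 0.52 ± 0.09 (adjusted p = 0.000494), beside Acan. Of the hyaluronan synthases, Has1 was tested and did not pass, at -0.02 ± 0.08 (adjusted p = 0.829). The median of the list was -0.07, against 0.01 for all genes.

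Of 30 tested genes that build and sulphate chondroitin, dermatan or keratan chains, 6 rose and 10 fell, 53.3% of the list and so near the same background of 52.6%. Chst11, a chondroitin 4-O-sulphotransferase, fell by 1.99 ± 0.11 (adjusted p = 1.77e-07) and Chsy1, a chondroitin synthase, by 1.98 ± 0.14 (adjusted p = 8.94e-07). Chsy1 read 8.06 to 8.53 with both drugs in pmel-1 recipients, against 10.16 and 10.34 with vehicle, and 8.73 and 8.77 in control recipients, against 10.71 and 10.66. Dsel, a dermatan sulphate epimerase, rose by 0.83 ± 0.10 (adjusted p = 2.86e-05), and Chst13 fell by 0.40 ± 0.07 (adjusted p = 0.000681), with every combination array under the filter level. Chst13 was over that level on 3 vehicle arrays alone, so it entered the fit only through the group where it was high. The median of the list was -0.04.

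Of 11 tested proteases that cut versican or small proteoglycans 2 rose and 4 fell, 54.5% of the list, also near 52.6%. The falls were in 4 enzymes of 1 family, Adamts5 by 0.90 ± 0.13, Adamts4 by 0.87 ± 0.16, Adamts9 by 0.72 ± 0.13 and Adamts1 by 0.63 ± 0.17, with adjusted p-values of 0.000148, 0.000737, 0.000793 and 0.0078. All 4 cut versican or aggrecan. The 2 that rose, named after their values were seen, were Adamts20 of the same family, at 0.45 ± 0.13 (adjusted p = 0.0126), and Bmp1, at 0.36 ± 0.10 (adjusted p = 0.0083). Of 14 collagens and collagen-processing genes 4 rose, 28.6% of the list where 28.1% of all genes rose, and 0 fell. They were Col14a1 by 1.75 ± 0.43, Col1a1 and Col3a1, which are also among the fibroblast markers, and Col5a2 by 0.79 ± 0.15. Without control vehicle replicate 3, 7 of the 14 rose.

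Of 22 tested partners and receptors of small proteoglycans 8 rose and 6 fell, 63.6% of the list where 52.6% of all genes changed. Met, a receptor that decorin binds, rose by 2.17 ± 0.12 (adjusted p = 2.22e-07), and Tlr2, a receptor of biglycan and versican, rose by 1.04 ± 0.11 (adjusted p = 1.35e-05). All 6 macrophage markers rose as well, where 28.1% of all genes rose, with a median of 1.30. Their part in the rise of Tlr2 was not tested. Igf1r, another receptor bound by decorin, fell by 1.78 ± 0.17 (adjusted p = 8.14e-06). The growth factor Bmp4 fell by 2.10 ± 0.12 (adjusted p = 2.22e-07), with every combination array under the filter level. Bmp4 was over that level on 4 vehicle arrays and 1 trametinib array alone, so in this contrast it entered only through the group where it was high. Of the other small leucine-rich proteoglycans tested, Podn and Optc did not pass, and Omd entered only through the 2 arrays named above.

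**Figure D5:**
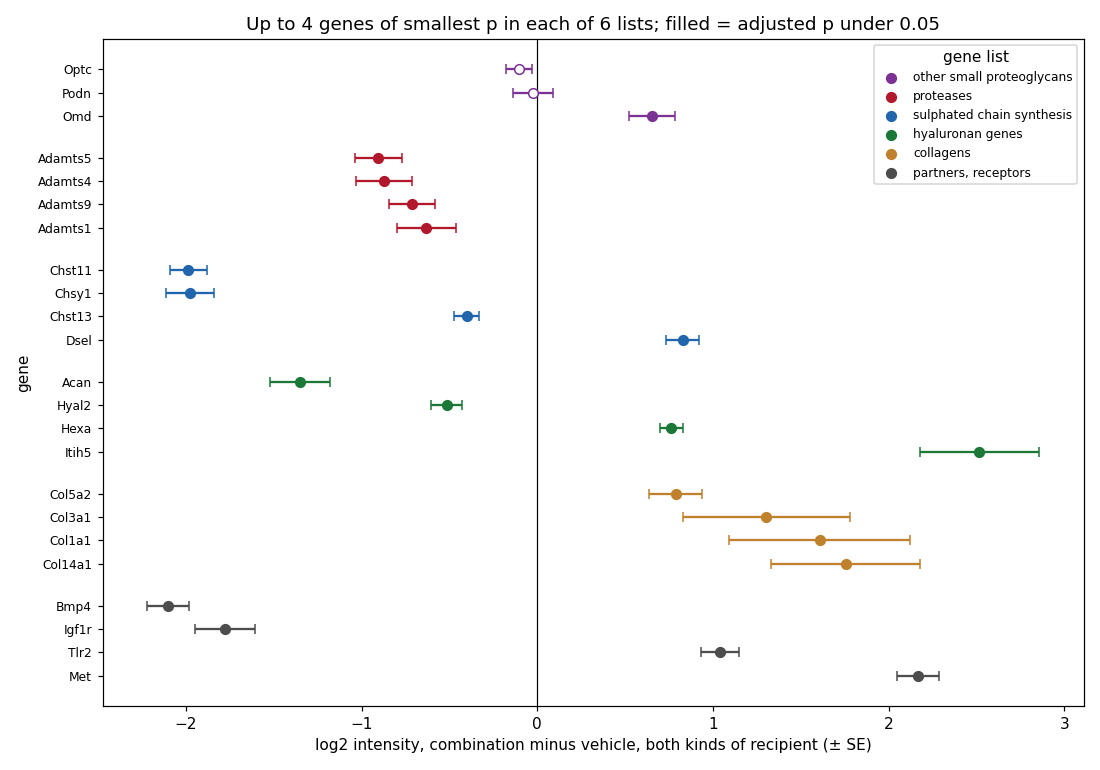
Log2 difference with SE, combination minus vehicle over both kinds of recipient, of up to 4 genes of smallest p from each of 6 gene lists. Filled points passed the test. Of these, Omd entered the fit through 2 arrays alone, Chst13 through 3 vehicle arrays alone and Bmp4 through 4 vehicle arrays and 1 trametinib array. The 4 Adamts genes shown lie left of 0 and all 4 collagens right of it, and the hyaluronan, chain synthesis and partner genes lie on both sides.

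The genes whose values were most like those of each member over the 13 arrays are given by Pearson correlation, as a description of arrays that share treatments. For Lum these were Islr (0.98), Dcn (0.97) and Kank4 (0.93), and for Dcn Lum (0.97), Islr (0.96) and Kank4 (0.95). Bgn was most like Mfap5 (0.97), Igfbp6 (0.96) and Col1a1 (0.94). Hapln1 was most like Fam124a (0.98), Bok (0.97) and Wnt4 (0.97), and Vcan like Lpar1 (0.93), Rpl41 (0.91) and Fbn2 (0.90). Aspn was nearest to Rasa1 (0.93), Dlk1 (0.91) and Stk16 (0.90), Fmod to Lactb (0.96), Kdm4c (0.96) and Zfp874a (0.94), and Prelp to Hacd2 (0.93), Tcaf1 (0.91) and Tjp1 (0.90).

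Among the members, Dcn and Lum correlated at 0.97, Dcn and Bgn at 0.84 and Lum and Bgn at 0.80. Hapln1 ran against them, at -0.71 with Dcn, -0.66 with Lum and -0.77 with Bgn, and correlated with its neighbour Vcan at 0.41. Aspn correlated with Vcan at 0.73 and with Lum at 0.57. By group, the mean of Lum was 10.56 ± 0.16 in control tumours given both drugs (SD, n = 2), 8.18 ± 0.05 with trametinib, 7.95 ± 0.52 with the combination and 7.88 ± 1.65 with dabrafenib in pmel-1 recipients, 7.54 ± 0.89 in control and 6.66 ± 0.87 in pmel-1 tumours given vehicle. The 5 lower groups each overlapped their neighbour in that order.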

How the data were processed

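Total RNA of SM1 tumours was hybridised as biotinylated cDNA to Affymetrix GeneChip mouse arrays, per the labels' protocols. The authors deposited log2 intensities per probe set, and RMA and affy are named in the submitters' processing notes, without versions. Of 45101 probe sets, 34945 had 1 gene symbol, 932 several, 9160 none and 64 were controls, and 1 probe set per symbol (highest mean) was kept. The filter kept 13783 genes that exceeded the 40th percentile (5.79) on 2 or more arrays. Group means of all 13 arrays were fitted with limma 3.58.1 in R 4.3.3 (eBayes, 7 residual degrees of freedom), with 11 contrasts, each adjusted by Benjamini-Hochberg. On simulated data with 200 genes changed 2-fold, 98% were recovered in the combination contrast pooling recipients, 90% in control and 93% in pmel-1 recipients, with 5.31%, 4.26% and 5.58% false calls. Only 200 of 13783 genes were changed there, while 35.4% to 52.6% were called in these contrasts of the data. The simulated rates therefore need not hold for these arrays. Named from each list were the 4 genes of smallest p, and for each member the 3 most alike genes. Members and lists were chosen with earlier results of these data known. The number of arrays limits the precision. Figures were drawn with matplotlib 3.10.9.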

Additional observations from a re-analysis of the deposited data

How the results depend on the processing

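Alternatives covered the choice of probe set, the filter, the normalization, the variance model, array weights, the arrays in the fit, the 3′ to 5′ ratio as a covariate and leaving out each array. Single genes were refitted for chosen pairs of gene and contrast, mostly those with a call, and the other pairs were not counted. Of 621 such refits, 560 kept their side of the threshold, 43 lost the call, 16 gained one and 2 reversed. A gene without a call counted as kept even if its sign changed. Aspn over both kinds of recipient did so, at -0.32 to 0.38. The reversals were Fmod with its probe set of highest variance, at -0.11 over both kinds of recipient and -0.26 with dabrafenib. The combination over both kinds of recipient called 4 to 8 genes, against 6. In pmel-1 recipients it called 5 with array weights and 6 with only the arrays compared, against 2, and 2 to 5 leaving out 1 array. Dabrafenib called 1 with the covariate, against 2, and 1 to 4 leaving out 1 array. Trametinib called 1 with the probe set of highest variance or the mean of probe sets, 4 with array weights and 6 with only the arrays compared, against 2, and 1 to 5 leaving out 1 array. The transfer under vehicle called 0 to 2 leaving out 1 array, and under the combination 0 to 3, 1 with the filter at the 60th percentile and 0 with the covariate, against 2. The cause was not tested.

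Vcan lost its call without 8 single arrays, at -0.86 to -0.56. Without the 3 arrays high for adipocyte markers, an alternative chosen after seeing the data, Fmod missed the threshold with dabrafenib (0.50) and trametinib (0.53). Deviations from the group mean correlated at -0.46 to 0.45 (median -0.07) between arrays of the same replicate number. Between arrays of different numbers they correlated at -0.45 to 0.46 (median 0.02). In groups of 2 arrays the deviations mirror each other, so the check cannot exclude pairing by replicate number. With the number as a replicate block, trametinib called 4 genes against 2, Bgn gave 0.57 over both kinds of recipient and missed the threshold, and Dcn passed for the transfer under the combination, at -1.71. No paired design is stated in the labels.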
